A study of Homo sapiens with 30 samples.

Results

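The TGF-beta pathway was followed through 9 genes of the RNA-Seq data from SH-EP cells, an established human neuroblastoma (NB) line with mesenchymal character. The genes were chosen by symbol, with earlier results of these data known, so their counts beside shares of all genes are descriptive only. The set comprises the ligands TGFB1, TGFB2, and TGFB3 and the receptors TGFBR1, TGFBR2, and TGFBR3. It also holds genes of the intracellular proteins SMAD3 and SMAD7, and the target gene TGFBI. These are 9 of the 26228 genes in the table, and each of the 9 passed the filter on low values that left 11575 genes for testing. Parental SH-EP cells and 4 stable derivatives were compared. The derivatives carried a retroviral MYCN transgene under an exogenous promoter, either WT or with T58A, S62A, or T58A S62A substitutions that remove phosphorylation sites governing MYCN turnover. All were grown in serum-containing medium and treated for 6 hours with DMSO or with 1 μM CYC065, an inhibitor of CDK9 and CDK2. Each of the 10 groups had 3 libraries, 30 in all. Each MYCN genotype was represented by a single derivative, and the sources do not say whether the 3 libraries of a group came from separate cultures, so p-values measure the spread between libraries, which may be technical.

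TGF-beta ligands are secreted in a latent form bound to matrix, and once released they bind the type II receptor TGFBR2, which recruits and phosphorylates the type I receptor TGFBR1. TGFBR3 (betaglycan) is a coreceptor that presents ligand, TGFB2 above all, to TGFBR2. The activated type I receptor phosphorylates SMAD2 and SMAD3, which enter the nucleus with SMAD4 and regulate genes of matrix, adhesion, and cytoskeleton, among them TGFBI. SMAD7 is induced by the pathway and inhibits it by binding the activated type I receptor. In mesenchymal cells the pathway is known for maintaining matrix production and contractile gene expression.

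Levels are given in FPKM as deposited, a measure per transcript length that allows genes to be compared within a library. For CYC065 the main scale was FPKM scaled to spike-ins, that is, to ERCC RNAs that had been added by cell number, so that a value reflects RNA per cell. How many reads each library had is unknown. The steps between low FPKM values placed the DMSO libraries at 0.47 to 1 of the deepest library and those with CYC065 at 0.293 to 0.555 of it. MYCN, the check of the labels, was listed at 0 in all 6 SH-EP libraries and lay between 5.08 and 15.7 FPKM in the 12 DMSO libraries of the MYCN lines. All 6 mesenchymal markers (PRRX1, SNAI2, FN1, VIM, YAP1, and CD44) were expressed in SH-EP, whereas 4 of 7 adrenergic markers, among them PHOX2A, DBH, and HAND1, were listed at 0 in each SH-EP DMSO library. The 7 adrenergic markers summed to 15.45 to 17.8 FPKM there, most of it GATA2, which lay between 14.3 and 22.4 FPKM in the 15 DMSO libraries, while ISL1 lay between 0.552 and 2.01 FPKM and TH at no more than 0.425 FPKM. The defining markers of leukocytes, epithelium, and endothelium (PTPRC, EPCAM, and PECAM1) summed to at most 0.79 FPKM in any library. Since each of the 6 SH-EP libraries had the same index as some library of a MYCN derivative, they were not all sequenced in the same pool, and pool and line cannot be told apart. In these bulk cultures, fewer cells that express a gene and less RNA of it per cell cannot be told apart either. With DMSO, 1 of the T58A libraries stood apart, with a median log2 spike-in level of 4.12 against 3.43 and 3.45.

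The 9 genes lie on 8 chromosomes of GRCh37. The ligand genes are TGFB1 (chromosome 19, 41807492 to 41859827, minus strand), TGFB2 (chromosome 1, 218518678 to 218617961, plus strand), and TGFB3 (chromosome 14, 76424440 to 76449354, minus strand). The receptor genes are TGFBR1 (chromosome 9, 101866320 to 101916474, plus strand), TGFBR2 (chromosome 3, 30648093 to 30735634, plus strand), and TGFBR3 (chromosome 1, 92145900 to 92371892, minus strand). SMAD3 is on chromosome 15 (67356101 to 67487511, plus strand), SMAD7 on chromosome 18 (46446223 to 46477335, minus strand), and TGFBI on chromosome 5 (135364677 to 135399507, plus strand). All 9 are protein coding.

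In SH-EP cells treated with DMSO, TGFBI was by far the most abundant of the 9 transcripts, at 684 ± 5.34 FPKM (mean ± SD, n = 3). TGFB1 followed at 109 ± 7.46 FPKM and TGFBR2 at 35.5 ± 0.91 FPKM. SMAD3 was at 17.5 ± 0.18 FPKM and SMAD7 at 10.8 ± 0.297 FPKM. The other 4 genes were low, with TGFB2 at 3.05 ± 0.179 FPKM, TGFBR1 at 2.56 ± 0.141 FPKM, TGFBR3 at 1.79 ± 0.118 FPKM, and TGFB3 at 1.06 ± 0.189 FPKM. In this line TGFB1 was thus the main ligand transcript, and the type II receptor was more abundant than the type I receptor. None of the 9 was at 0 in any of the 30 libraries.

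**Figure D1:**
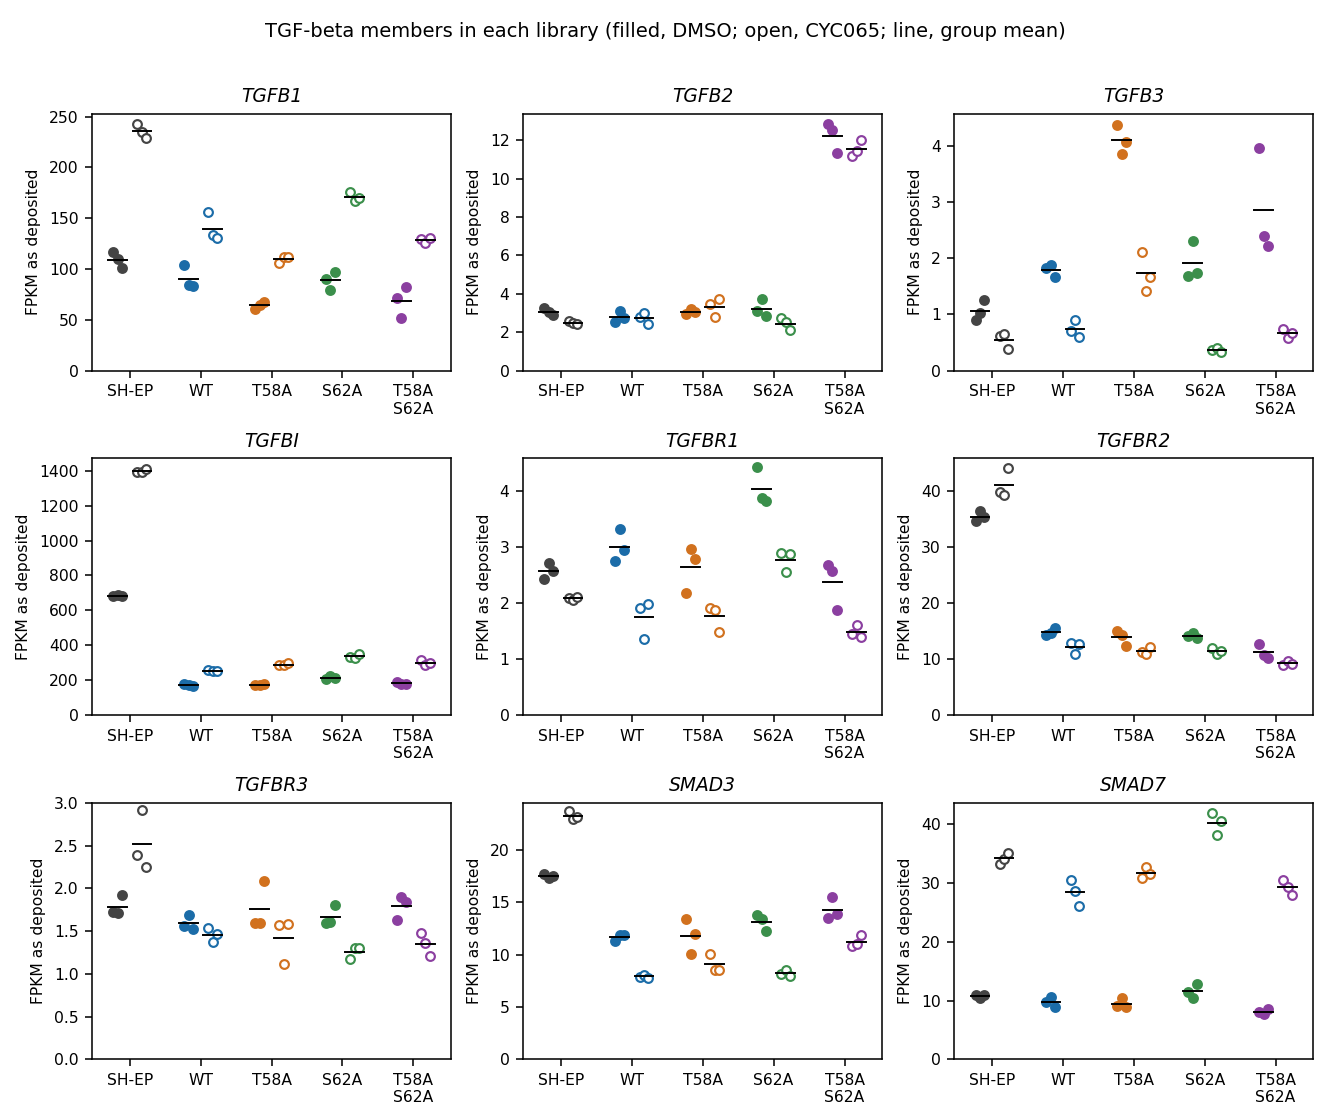
FPKM as deposited of the 9 genes in every library, by line, with DMSO libraries filled, CYC065 libraries open, and a bar at each group mean. TGFBI and TGFBR2 are highest in SH-EP, and TGFB2 is near 12 FPKM in T58A S62A and near 3 elsewhere. SMAD7 lies between 7.74 and 12.8 FPKM in DMSO and between 26.1 and 42 FPKM in CYC065.

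Upstream sequences were searched because MYCN binds E-boxes, of which CACGTG is the preferred form, and SMAD3 binds elements containing CAGACA. The RefSeq table (GRCh38.p14) held 24 start sites of the 9 genes, and the 250 bases upstream of each were searched on both strands. CACGTG occurred in 3 of the 24 windows, 1 each of TGFB2, TGFB3, and SMAD3, against 6.34% of all 35116 windows. CAGACA occurred in 4 of the 24, against 13.6% of all windows, and the palindrome GTCTAGAC in 0 of the 24, against 0.182%. The windows of TGFB2, TGFB3, and SMAD3 are shown because they held CACGTG, and those of TGFBI and TGFBR2 because these genes fell most between the lines. In them, capitals mark these motifs, which in TGFB2 overlap by 2 bases, and bases run 5′ to 3′ up to the base before the start site.
TGFB2, chr1:218345086-218345335, plus strand: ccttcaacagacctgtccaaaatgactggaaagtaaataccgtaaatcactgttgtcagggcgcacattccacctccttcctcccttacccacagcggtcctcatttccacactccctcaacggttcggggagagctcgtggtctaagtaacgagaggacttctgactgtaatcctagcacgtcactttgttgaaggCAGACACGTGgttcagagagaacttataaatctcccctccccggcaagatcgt
TGFB3, chr14:75983012-75983261, minus strand: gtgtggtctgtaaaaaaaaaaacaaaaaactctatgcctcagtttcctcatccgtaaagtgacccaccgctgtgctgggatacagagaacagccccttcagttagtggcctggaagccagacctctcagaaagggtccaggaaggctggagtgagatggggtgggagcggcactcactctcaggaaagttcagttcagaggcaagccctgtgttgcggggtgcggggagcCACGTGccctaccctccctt
SMAD3, chr15:67065352-67065601, plus strand: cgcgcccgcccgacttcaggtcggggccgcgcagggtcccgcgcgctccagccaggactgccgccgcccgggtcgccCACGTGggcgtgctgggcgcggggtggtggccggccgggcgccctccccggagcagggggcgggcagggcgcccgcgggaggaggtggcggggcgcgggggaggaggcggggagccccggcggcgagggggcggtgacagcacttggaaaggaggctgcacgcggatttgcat
TGFBI, chr5:136028738-136028987, plus strand: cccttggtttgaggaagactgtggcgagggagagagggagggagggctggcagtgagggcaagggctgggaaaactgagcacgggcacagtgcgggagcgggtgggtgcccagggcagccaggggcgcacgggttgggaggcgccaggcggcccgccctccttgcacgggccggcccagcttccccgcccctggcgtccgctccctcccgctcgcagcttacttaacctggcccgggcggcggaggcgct
TGFBR2, chr3:30606351-30606600, plus strand: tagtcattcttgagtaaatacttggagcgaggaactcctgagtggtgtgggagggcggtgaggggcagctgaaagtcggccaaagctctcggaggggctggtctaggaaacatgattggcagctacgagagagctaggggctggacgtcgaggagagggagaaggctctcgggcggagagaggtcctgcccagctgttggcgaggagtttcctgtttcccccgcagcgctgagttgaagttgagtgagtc
The CACGTG began 49 bases upstream of the TGFB2 start, 20 bases upstream of the TGFB3 start, and 173 bases upstream of the SMAD3 start. The windows of TGFBI and TGFBR2 held none of the 3 motifs. The general E-box CANNTG (N for any base), not marked here, occurred in 14 of the 24 windows, against 61.8% of all windows. The TGFBR2 window shown held 2 and the TGFBI window 0. These matches describe the letters in the windows only, and binding was not measured here.

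The question of the comparison between lines was how MYCN overexpression changes the transcriptome of a mesenchymal NB line. In DMSO, the abundant target TGFBI and the receptor TGFBR2 fell to 0.419 of their SH-EP level or less in each of the 4 MYCN lines, and SMAD3 and TGFB1 fell more modestly in all 4. The minor ligand TGFB3 rose in all 4 lines, by 1.64-fold to 3.65-fold. TGFB2 rose 3.91-fold in T58A S62A and did not pass the threshold in the other 3 lines. By limma over all 11575 genes tested, at an adjusted p under 0.05, 1 of the 9 genes was higher and 4 lower in WT, where 31.6% of all genes were higher and 22.6% lower. The counts were 1 higher and 5 lower in T58A (30.9% and 23.3% of all genes), 2 higher and 4 lower in S62A (31% and 23.4%), and 2 higher and 5 lower in T58A S62A (31.2% and 24.1%). In the same direction in all 4 lines, 1 of the 9 was higher and 4 were lower, against 19.2% and 13.4% of all genes. The median change of the 9 genes ran from -0.30 in T58A S62A to -0.09 in S62A, and that of all genes from 0.05 to 0.07.

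The scale matters for these calls. With spike-in scaling the median gene fell by 0.75 (T58A S62A), 0.88 (T58A), 1.16 (WT), and 1.86 (S62A) on the log2 scale, and 8 of the 9 genes were lower and 0 higher in WT, against 88.5% and 0.994% of all genes. In T58A 8 were lower and 1 higher (77.6% and 1.87%), in S62A 9 and 0 (95% and 0.389%), and in T58A S62A 7 and 1 (69.7% and 2.27%). The median log2 spike-in level was 2.67 to 2.78 in the SH-EP DMSO libraries and 3.38 to 4.85 in those of the MYCN lines, and whether this follows the line or the pool cannot be told apart. TGFBI, TGFBR2, SMAD3, and TGFB1 were lower in all 4 lines on both scales, and lay below the median gene on both.

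**Figure D2:**
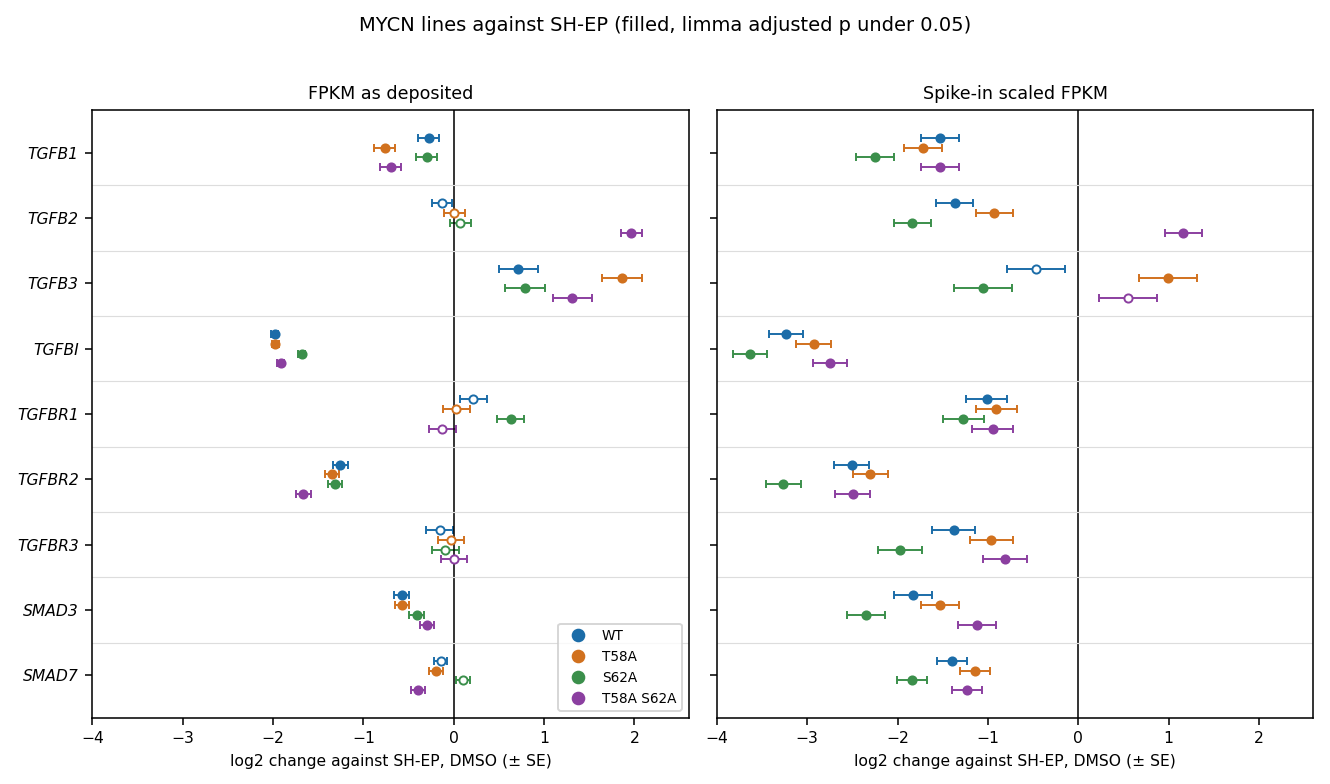
Log2 change of each gene in the 4 MYCN lines against SH-EP in DMSO, with the SE from limma, on FPKM as deposited (left) and on spike-in scaled FPKM (right). Filled points passed an adjusted p of 0.05. TGFBI lies between -1.98 and -1.68 and TGFBR2 between -1.66 and -1.25 on the left, and both lie further down on the right, while TGFB2 in T58A S62A and TGFB3 in T58A stay above 0 in both panels.

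Among the ligands, TGFB1 was at 116, 109.5, and 101 FPKM in the SH-EP libraries. It was at 104, 84.2, and 82.9 FPKM in WT and at 89.85, 78.9, and 97.3 FPKM in S62A. It was at 60.3, 64.1, and 67.9 FPKM in T58A and at 71.4, 51.5, and 82.4 FPKM in T58A S62A. The libraries of T58A, S62A, and T58A S62A lay below every SH-EP library, and those of WT overlapped them. The log2 change was -0.76 in T58A and -0.70 in T58A S62A (SE 0.12 each, adjusted p = 4.69e-06 and 1.58e-05 by limma). In WT and S62A it was -0.28 and -0.30 (adjusted p = 0.0461 and 0.0306 by limma), and in the 30 fits that left out a single library the WT call was lost in 19 and the S62A call in 4.

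TGFB2, the ligand that depends most on TGFBR3, was at 3.24, 3.04, and 2.88 FPKM in SH-EP. In T58A S62A it was at 12.8, 12.5, and 11.3 FPKM, above every other DMSO library. In WT, T58A, and S62A it lay between 2.52 and 3.73 FPKM and overlapped SH-EP. The log2 change in T58A S62A was 1.97 (SE 0.11, adjusted p = 5e-13 by limma) and 1.16 with spike-in scaling. In the other 3 lines the changes were -0.13 (95% interval -0.37 to 0.11) in WT, 0.0073 in T58A, and 0.073 in S62A, which with spike-in scaling became -1.37, -0.93, and -1.84.

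TGFB3 was at 0.891, 1.03, and 1.26 FPKM in SH-EP and at 4.37, 3.86, and 4.07 FPKM in T58A. It was at 1.83, 1.87, and 1.67 FPKM in WT and at 1.68, 2.3, and 1.74 FPKM in S62A. In T58A S62A the libraries spread from 2.21 to 3.97 FPKM. Every MYCN-line library lay above every SH-EP library. The log2 change was 1.87 in T58A (SE 0.22, adjusted p = 1.25e-07 by limma) and 0.99 there with spike-in scaling. It was 0.72 in WT and 0.79 in S62A (adjusted p = 0.00801 and 0.0039 by limma), and with spike-in scaling these became -0.47 and -1.06. In T58A S62A it was 1.31 (adjusted p = 1.82e-05 by limma), and 0.55 with spike-in scaling (adjusted p = 0.124).

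Of the receptors, TGFBR2 was at 34.6, 36.4, and 35.4 FPKM in SH-EP and between 10.1 and 15.6 FPKM in the 12 DMSO libraries of the MYCN lines, with no overlap. The levels fell by 1.25 (WT), 1.35 (T58A), 1.32 (S62A), and 1.66 (T58A S62A) on the log2 scale (SE 0.081 each), and the largest adjusted p was 4.55e-12 by limma. Expressed as folds, TGFBR2 was 2.39-fold to 3.17-fold lower. The order of the line means was SH-EP, WT, S62A, T58A, and T58A S62A, and only the step from SH-EP to WT separated all libraries. TGFBR1, the signalling type I receptor, behaved otherwise, at 2.43, 2.71, and 2.56 FPKM in SH-EP and between 1.87 and 3.32 FPKM in WT, T58A, and T58A S62A. In S62A it was at 4.42, 3.86, and 3.82 FPKM, above every other DMSO library, with a log2 change of 0.63 (SE 0.15, adjusted p = 0.00098 by limma) that became -1.28 with spike-in scaling. TGFBR3 was between 1.53 and 2.08 FPKM in all 15 DMSO libraries. Its changes ran from -0.16 in WT (95% interval -0.46 to 0.14) to 0.0031 in T58A S62A, none past the threshold, and with spike-in scaling it was lower in all 4 lines, by 0.81 to 1.97 on the log2 scale.

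The shift in receptors was also taken as a ratio within each library, which does not depend on the scaling. In SH-EP, TGFBR2 FPKM was 14.3, 13.45, and 13.8 times that of TGFBR1. In the MYCN lines the ratio ran from 3.2 in an S62A library to 6.9 in a T58A library. The mean log2 ratio (with 0.1 added to each FPKM) was 2.16 in the 12 MYCN-line libraries and 3.74 in the 3 SH-EP libraries, a difference of -1.58 (exact permutation test over libraries, two-sided, p = 0.0022, the smallest that 3 against 12 libraries can give). The 12 libraries came from 4 lines, so this p reads over libraries and not over lines.

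SMAD3, the receptor-activated transcription factor, was at 17.7, 17.3, and 17.5 FPKM in SH-EP. It was at 11.3, 11.9, and 11.9 FPKM in WT, between 10.0 and 13.4 FPKM in T58A, 13.8, 13.4, and 12.3 FPKM in S62A, and 13.5, 15.5, and 13.8 FPKM in T58A S62A. Every MYCN-line library lay below every SH-EP library. The log2 changes were -0.58, -0.57, -0.41, and -0.30 in that order (SE 0.080 each), and the largest adjusted p was 0.00316 by limma. SMAD7, the inhibitor, was at 11.0, 10.4, and 10.9 FPKM in SH-EP. It fell by 0.40 on the log2 scale in T58A S62A, where it was at 8.07, 7.74, and 8.62 FPKM, below every SH-EP library (SE 0.077, adjusted p = 0.000103 by limma). In T58A it was -0.19 (adjusted p = 0.0371 by limma) with overlapping libraries, a call lost in 4 of the 30 fits that left out a single library. It did not pass the threshold in WT (-0.15) or in S62A, where its change of 0.099 became -1.84 with spike-in scaling.

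TGFBI, the secreted matrix protein whose transcript TGF-beta induces, showed the largest fall. It was at 682, 690.2, and 680.2 FPKM in SH-EP. It was at 178, 175, and 167 FPKM in WT, 174, 169, and 178 FPKM in T58A, 205, 223, and 210.4 FPKM in S62A, and 188, 177, and 179 FPKM in T58A S62A. The MYCN-line libraries formed a narrow band far below SH-EP, with S62A at its upper edge. The levels fell by 1.98, 1.98, 1.68, and 1.92 on the log2 scale (SE 0.038 each), which is 3.21-fold to 3.95-fold, and the largest adjusted p was 9.12e-21 by limma. With spike-in scaling the changes ran from -3.64 to -2.75. Of the 6 mesenchymal markers, PRRX1, SNAI2, FN1, VIM, and CD44 were also lower in all 4 MYCN lines by limma. YAP1 was higher in T58A (0.24), lower in S62A (-0.28), and not past the threshold in WT (-0.012) or T58A S62A (0.060). The summed level of the 6, most of it VIM, was 3184 to 3303 FPKM in the SH-EP DMSO libraries and 1564 to 2240 FPKM in those of the MYCN lines. The part that this wider shift has in the fall of TGFBI and TGFBR2 was not tested.

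The mutant MYCN lines were then compared with the WT line in DMSO. MYCN itself lay between 11.7 and 13.7 FPKM in WT and between 7.27 and 9.84 FPKM in T58A. It lay between 5.08 and 6.59 FPKM in S62A and between 9.06 and 15.7 FPKM in T58A S62A. With a single derivative per genotype, the substitution, the MYCN level, and the derivative cannot be told apart. The plainest difference was TGFB2 in T58A S62A, 4.28-fold above WT, while TGFB3 was 2.22-fold above WT in T58A. By limma, 1 of the 9 genes was higher and 1 lower in T58A, against 10.7% and 13% of all genes. In S62A 3 were higher and 0 lower (10.1% and 14%), and in T58A S62A 2 were higher and 3 lower (9.43% and 14.2%). For TGFB2 in T58A S62A the log2 difference was 2.10 (SE 0.11, adjusted p = 1.71e-12 by limma) and 2.53 with spike-in scaling. For TGFB3 in T58A it was 1.15 (SE 0.22, adjusted p = 0.000441 by limma) and 1.46 with spike-in scaling.

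The remaining differences among MYCN lines were small. TGFB1 was lower in T58A by 0.49 (adjusted p = 0.00303 by limma) and in T58A S62A by 0.42 (adjusted p = 0.00911 by limma), which shrank to -0.19 and to 0.0033 with spike-in scaling. In S62A, TGFBI, TGFBR1, and SMAD7 were higher by 0.30, 0.42, and 0.25 on the log2 scale, and with spike-in scaling the differences were -0.40, -0.26, and -0.45, of which that of SMAD7 passed as lower. The TGFBR1 call (adjusted p = 0.0456 by limma) was lost in 14 of the 30 fits that left out a single library, and the SMAD7 call in 3. In T58A S62A, SMAD3 was higher by 0.28 (adjusted p = 0.0119 by limma) and by 0.70 with spike-in scaling. TGFBR2 and SMAD7 in T58A S62A were lower by 0.41 and 0.25, and with spike-in scaling they were at 0.011 and 0.17. In that line the calls of SMAD7, TGFB1, and SMAD3 were lost in 3, 2, and 1 of these 30 fits. With the spread estimated only from the groups compared, 6 of these 10 calls were lost, and those of TGFB2 in T58A S62A, TGFB3 and TGFB1 in T58A, and TGFBI in S62A held.

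The ligand mixture can be read within each library without any scaling. TGFB1 made up 96.1% to 96.6% of the summed FPKM of the 3 ligands in SH-EP, and TGFB2 2.67% to 2.73%. In T58A S62A the TGFB2 share was 14.6%, 18.8%, and 11.8%, above every other library in the series. In T58A the share of TGFB3 was 6.45%, 5.42%, and 5.43%, above every other library, against 0.74% to 1.2% in SH-EP. Both shares were above SH-EP in both lines, with TGFB2 at 4.36%, 4.51%, and 4.05% in T58A. TGFB3 was at 4.5%, 3.6%, and 2.31% in T58A S62A. Over the 12 MYCN-line DMSO libraries the mean TGFB2 share was 6.46% against 2.7% in SH-EP, and this difference did not pass an exact permutation test over libraries (p = 0.132, two-sided). The WT library at 2.32% lay below the SH-EP libraries, and every other MYCN-line DMSO library lay above them. The summed ligand level was 106 to 120.4 FPKM in SH-EP and 66.4 to 108 FPKM in the MYCN lines.

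**Figure D3:**
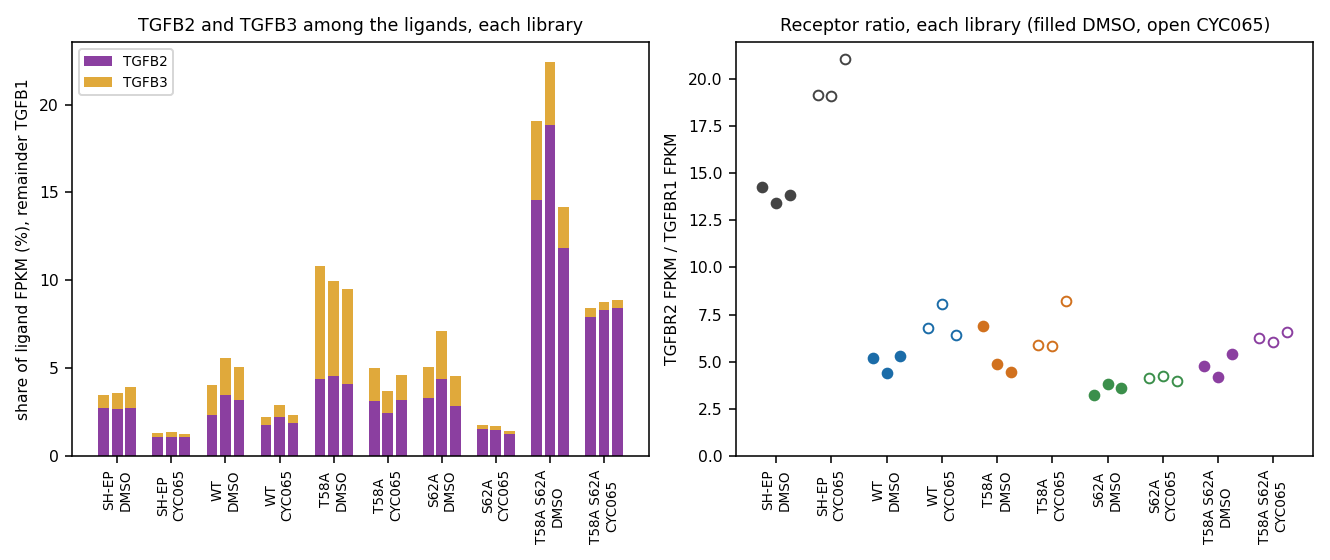
Left, the shares of TGFB2 and TGFB3 in the summed FPKM of TGFB1, TGFB2, and TGFB3 in each library, the remainder being TGFB1. Right, FPKM of TGFBR2 divided by that of TGFBR1 in each library, filled for DMSO and open for CYC065. T58A S62A has the highest TGFB2 share and SH-EP the highest receptor ratio in both treatments.

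CYC065 blocks CDK9, the kinase that releases RNA polymerase II into elongation, and the comparison within lines asked which transcripts fell over 6 hours. Per cell, as the spike-ins measure it, TGFB2, TGFB3, the 3 receptors, and SMAD3 fell in every line. TGFB3 had the largest falls, but passed the 1 FPKM filter through its DMSO libraries (mean 2.34 FPKM, against 0.807 with CYC065). TGFB1 and TGFBI passed the threshold in some lines only. SMAD7 was the exception and rose in SH-EP, T58A, and T58A S62A. The median gene fell by 0.97 on the log2 scale in T58A S62A, 1.06 in SH-EP, 1.08 in T58A, 1.35 in S62A, and 1.57 in WT. By limma, 1 of the 9 genes was higher and 6 lower in SH-EP, where 0.907% of all genes were higher and 75.7% lower. The counts were 0 and 8 in WT (0.769% and 93.7%), 1 and 7 in T58A (1.25% and 84.2%), 0 and 8 in S62A (0.968% and 90.2%), and 1 and 6 in T58A S62A (1.85% and 76.3%). In all 5 lines 6 of the 9 were lower, against 69.4% of all genes, so a count of lower genes near the background says little about the 9, and their place relative to the median gene is given below. No gene of the 9 was higher in all 5 lines by adjusted or unadjusted p, against 0.501% of all genes.

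On FPKM as deposited, which compares each gene with the rest of the same library, 6 of the 9 genes were higher and 2 lower in SH-EP, where 42.7% of all genes were higher and 33.5% lower. The counts were 3 and 4 in WT (37% and 34.2%), 3 and 4 in T58A (38.1% and 33.3%), 3 and 6 in S62A (38.8% and 34.6%), and 3 and 5 in T58A S62A (38.6% and 34.2%). TGFB1, TGFBI, and SMAD7 were each higher in all 5 lines on that scale. The share of all genes higher in all 5 lines was not computed there, so this is not read as a result about the 9.

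**Figure D4:**
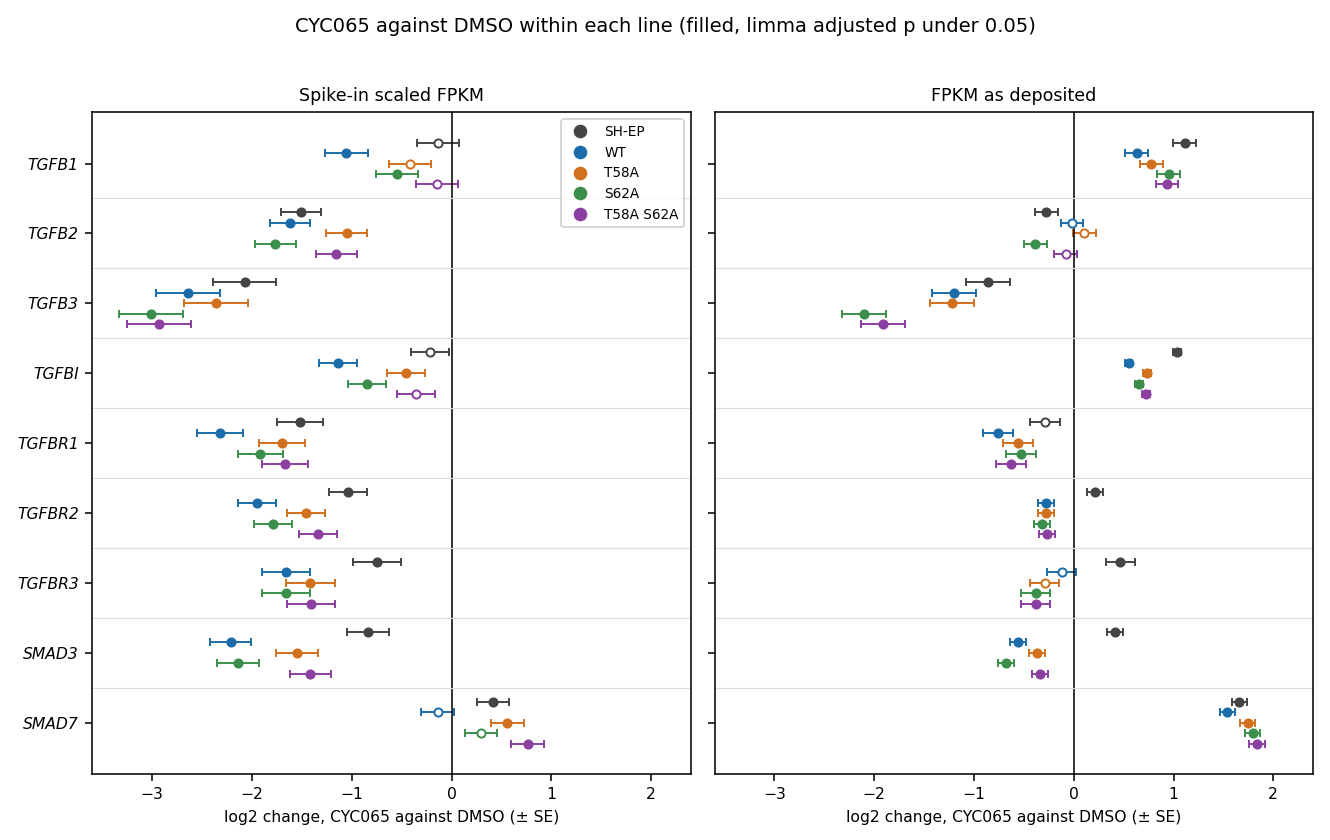
Log2 change with CYC065 against DMSO in each of the 5 lines, with the SE from limma, on spike-in scaled FPKM (left) and FPKM as deposited (right). Filled points passed an adjusted p of 0.05. On the left SMAD7 lies between -0.14 and 0.76 and the other genes below 0, and on the right SMAD7 lies between 1.54 and 1.84 while SMAD3, TGFBR2, and TGFBR3 lie above 0 in SH-EP and below 0 in the 4 MYCN lines.

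SMAD7 was at 11.0, 10.4, and 10.9 FPKM in SH-EP with DMSO and at 33.3, 34.2, and 35.2 FPKM with CYC065. In S62A it went from 11.5, 10.5, and 12.8 FPKM to 42.0, 38.2, and 40.5 FPKM. Over all lines the 15 DMSO libraries lay between 7.74 and 12.8 FPKM and the 15 CYC065 libraries between 26.1 and 42 FPKM, with no overlap. On this deposited scale the log2 change was 1.84 in T58A S62A, 1.79 in S62A, 1.74 in T58A, 1.66 in SH-EP, and 1.54 in WT, and the largest adjusted p was 3.25e-14 by limma. On the spike-in scale the change was 0.42 in SH-EP (SE 0.16, adjusted p = 0.024 by limma), 0.56 in T58A (adjusted p = 0.00308), and 0.76 in the double mutant line (adjusted p = 0.000162). It was 0.30 in S62A (adjusted p = 0.0885) and -0.14 in WT (adjusted p = 0.416), neither past the threshold. The SH-EP call was lost without 1 of the SH-EP DMSO libraries or either of 2 SH-EP CYC065 libraries, with changes of 0.36 to 0.39, and with spike-ins of at least 50 FPKM only. SMAD7 thus lay 1.43 to 1.74 above the median gene in each line, and 1.79% to 3.26% of all genes tested lay above it.

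Among the ligands, TGFB3 fell by 3.01 on the log2 scale in S62A, 2.93 in T58A S62A, 2.64 in WT, 2.37 in T58A, and 2.08 in SH-EP (SE 0.32 each), and the largest adjusted p was 1.85e-06 by limma. In S62A, as deposited, it went from 1.68, 2.3, and 1.74 to 0.365, 0.397, and 0.33 FPKM, and the DMSO and CYC065 libraries did not overlap in any line. It lay 1.01 to 1.96 below the median gene. On the spike-in scale the mean of TGFB3 in S62A with CYC065 was 0.105 FPKM, near the 0.1 added before the log. The sizes of its falls and their order among the lines are therefore uncertain. TGFB2 fell by 1.05 in T58A to 1.77 in S62A, and stayed within 0.45 of the median gene in each line. Its level in T58A S62A remained the highest after CYC065, at 11.2, 11.4, and 12.02 FPKM, against 2.11 to 3.74 FPKM in the other 12 CYC065 libraries.

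TGFB1 fell by 1.05 in WT (SE 0.21, adjusted p = 4.73e-05 by limma) and by 0.55 in S62A (adjusted p = 0.0181 by limma), where the call was lost without 1 of the S62A CYC065 libraries (-0.45). In SH-EP, T58A, and T58A S62A its changes of -0.14, -0.42, and -0.14 did not pass the threshold. On the deposited scale it was higher by 0.63 to 1.11 in all 5 lines, with no overlap between treatments, as in SH-EP from 116, 109.5, and 101 FPKM to 243, 235, and 229 FPKM. It lay 0.52 to 0.93 above the median gene. The fall of TGFB2 and TGFB3 relative to TGFB1 appeared in the ligand shares, where the mean share of TGFB2 went from 5.71% in DMSO to 3.1% in CYC065. The difference of -2.61 percentage points had an exact two-sided permutation p of 6.25e-07 with treatment permuted within the 5 lines, the smallest that 3200000 arrangements can give.

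The receptors fell per cell in every line, and on the spike-in scale the libraries of DMSO and CYC065 did not overlap in any of them. The share of all genes without such overlap was not computed, and 69.4% of all genes were lower in all 5 lines. TGFBR1 fell by 1.52 in SH-EP to 2.32 in WT (SE 0.23 each, largest adjusted p = 1.18e-06 by limma) and lay 0.46 to 0.75 below the median gene. TGFBR2 fell by 1.95 in WT, 1.79 in S62A, 1.46 in T58A, 1.34 in T58A S62A, and 1.04 in SH-EP. TGFBR3 fell by 0.74 in SH-EP, a call lost without 1 of the SH-EP CYC065 libraries (-0.58), and by 1.41 to 1.66 in the MYCN lines. Without spike-in scaling TGFBR2 went from 34.6, 36.4, and 35.4 to 39.9, 39.3, and 44.1 in SH-EP, a log2 change of 0.21 (adjusted p = 0.0211 by limma), whereas it was lower by 0.26 to 0.32 in the 4 MYCN lines. The log2 ratio of TGFBR2 to TGFBR1 rose from a mean of 2.47 in DMSO to 2.84 in CYC065 (difference 0.37, exact permutation within lines, two-sided, p = 1.56e-05). In T58A the treatments overlapped, with ratios before the log of 6.9, 4.855, and 4.45 in DMSO and 5.85, 5.835, and 8.24 in CYC065. In SH-EP the ratio was 19.2, 19.1, and 21.1 after CYC065, above all other libraries.

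SMAD3 fell by 2.22 in WT, 2.14 in S62A, 1.55 in T58A, 1.41 in T58A S62A, and 0.84 in SH-EP on the spike-in scale (SE 0.21 each, largest adjusted p = 0.000814 by limma). As deposited, its FPKM rose in SH-EP from 17.7, 17.3, and 17.5 to 23.7, 23.0, and 23.1. In WT it went from 11.3, 11.9, and 11.9 to 7.91, 8.04, and 7.81 on that scale. The treatments did not overlap in SH-EP or in WT, with opposite directions. TGFBI fell by 1.14 in WT, 0.46 in T58A, and 0.84 in S62A per cell, and its changes of -0.22 in SH-EP and -0.35 in T58A S62A did not pass the threshold. The T58A call was lost in 5 of the 30 fits that left out a single library, those without any of the 3 T58A CYC065 libraries or either of 2 T58A DMSO libraries, with changes of -0.46 to -0.32. It was also lost with spike-ins of at least 50 FPKM only (-0.30) and with the spread estimated only from the groups compared. Without the T58A DMSO library that stood apart the change was -0.71. Without spike-in scaling TGFBI was higher in all 5 lines, by 0.55 to 1.03, and reached 1396, 1392, and 1410.0 FPKM in SH-EP.

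Interaction terms of drug and line, on spike-in scaled FPKM, asked whether each MYCN line responded to CYC065 unlike the parental cells. SMAD3 differed in WT and S62A, and TGFB1, TGFBI, and TGFBR2 differed in WT, each falling further than in SH-EP. By limma 4 of the 9 passed in WT, all lower, where 18.1% of all genes passed and 16.3% were lower, and 1 passed in S62A, also lower (4.95% and 1.87%). In T58A 0 of the 9 passed (1 by unadjusted p under 0.05), where 2.59% of all genes passed and 0.311% were lower, and in T58A S62A 0 passed (0 by unadjusted p), where 5.41% did and 0.199% were lower. The interaction of SMAD3 was -1.38 in WT (SE 0.30, adjusted p = 0.011 by limma) and -1.30 in S62A (adjusted p = 0.00863 by limma), and -0.71 in T58A and -0.58 in T58A S62A. On FPKM as deposited that of SMAD3 was -0.97, -1.08, -0.78, and -0.75 in the same order, and the largest adjusted p was 3.04e-05 by limma. As deposited, 5 of the 9 were lower in WT (18.1% of all genes), 5 in S62A (13.7%), 5 in T58A S62A (14.8%), and 4 in T58A (14%).

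The WT interactions of TGFB1, TGFBI, and TGFBR2 were -0.92, -0.92, and -0.91 (adjusted p = 0.041, 0.0345, and 0.0349 by limma). The median interaction of all genes was -0.52 in WT, so these lay 0.39 to 0.40 below the median gene, and that of SMAD3 0.86 below it. Each of these 3 calls was lost in 8 of the 30 fits that left out a single library. The count of genes past the threshold in WT then fell to 1 without any of the 3 SH-EP DMSO libraries, either of 2 SH-EP CYC065 libraries, 1 WT DMSO library, or either of 2 WT CYC065 libraries, and rose to 7 without the remaining WT CYC065 library or without the T58A DMSO library that stood apart. Without that T58A library 1 gene also passed in T58A. With spike-ins of at least 50 FPKM only, 0 of the 9 genes passed in WT, and the SMAD3 call in S62A remained. In SH-EP the drug moved the median spike-in level of the libraries from 2.67 to 2.78 up to 3.86 to 4.16, and in WT from 3.67 to 4.21 up to 5.48 to 5.86. The part of these shifts in the interactions was not tested.

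The rest of the pathway was followed through 5 lists of genes, also chosen with earlier results of these data known, so their counts are descriptive. Of 11 genes that hold or release latent TGF-beta, 8 were tested, and 5 of these were lower than SH-EP in all 4 MYCN lines and 0 higher (0 by unadjusted p), against 13.4% and 19.2% of all genes. FBN1 (fibrillin-1, a microfibril protein to which latent complexes attach) had 22.9 ± 0.702 FPKM in SH-EP against 4.54 ± 0.633 in WT (SD, n = 3), and its log2 changes ran from -2.59 in T58A S62A to -1.91 in T58A. LTBP1, a latent TGF-beta binding protein, had 35.8 ± 1.19 FPKM in SH-EP against 8.18 ± 0.507 in WT, with changes from -2.56 to -1.56. ITGB5, an integrin subunit of an αv integrin that can activate latent ligand, fell by 0.90 to 1.56. The median change of the list was between -1.53 in T58A and -0.66 in S62A, and that of all genes between 0.05 and 0.07. All of these were lower with spike-in scaling too.

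Of 18 textbook targets 15 were tested, and 8 were lower in all 4 MYCN lines and 1, JUNB, higher, against 13.4% and 19.2% of all genes. FN1 (fibronectin) fell by 2.54 to 3.42 and COL1A1 (a collagen I chain) by 1.56 to 1.87 on the log2 scale. JUNB, an AP-1 subunit named here after its values were seen, rose by 0.48 to 1.03, and with spike-in scaling its changes were -1.47 in S62A, -0.63 in WT, 0.033 in T58A, and 0.20 in T58A S62A. The list's median change ran from -0.90 in T58A to -0.53 in S62A. FN1 and SNAI2 of this list are also among the mesenchymal markers.

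The other receptors, SMADs, and regulators were read against the same 13.4% of all genes lower and 19.2% higher in all 4 lines. Of 5 other receptors tested, 0 passed in the same direction in all 4 lines (1 lower by unadjusted p, by limma). Of the 6 other SMADs, SMAD6, an inhibitory SMAD that acts mainly on BMP signalling, was higher in all 4 lines, by 0.46 to 0.998. With spike-in scaling it was lower in S62A (-1.13), and its changes of -0.48 in T58A, -0.24 in WT, and -0.015 in T58A S62A did not pass the threshold. Of the 16 regulators, 2 were higher and 1 lower in all 4 lines. TGIF2, a SMAD corepressor, rose by 1.17 to 1.76, and with spike-in scaling was at -0.76 in S62A. TGFBRAP1, a receptor-associated protein, rose by 0.46 to 0.68, and with spike-in scaling was lower in WT, T58A, and S62A and at -0.14 in T58A S62A, which did not pass. FKBP1A, which binds the type I receptor, fell by 0.45 to 0.65. PMEPA1, a feedback inhibitor induced by TGF-beta, was singled out after its values were seen. It was at 9.51 ± 1.77 FPKM in S62A and 1.61 ± 0.0956 FPKM in SH-EP (SD, n = 3), with a log2 change of 2.48 (SE 0.25, adjusted p = 8.1e-09 by limma) and 0.59 with spike-in scaling. In T58A it was lower, by 0.65 (adjusted p = 0.0275 by limma), and in WT and T58A S62A its changes of 0.26 and -0.49 did not pass the threshold.

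**Figure D5:**
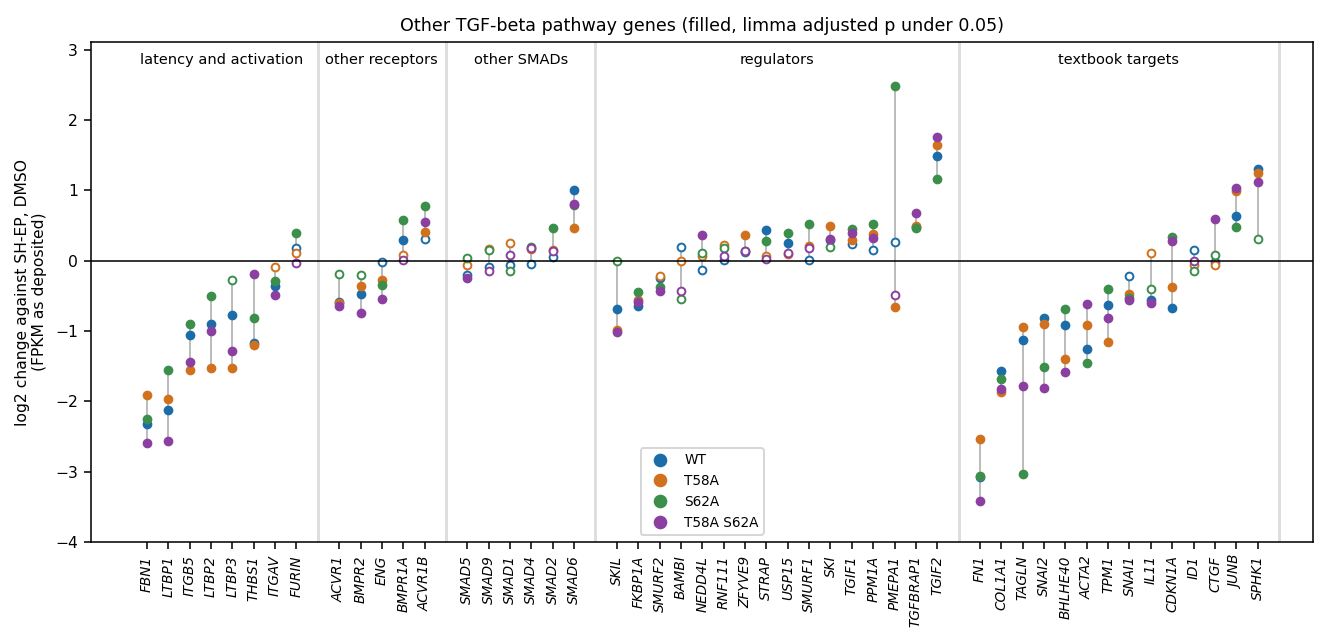
Log2 change against SH-EP in DMSO, on FPKM as deposited, of the tested genes of the 5 other pathway lists, 1 textbook target left out, with a point for each MYCN line, filled where limma's adjusted p was under 0.05. Latency genes and textbook targets lie mostly below 0, SMADs and regulators mostly near 0, and PMEPA1 in S62A stands at 2.48.

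With CYC065, on the spike-in scale, 4 of the 8 latency genes, all 5 other receptors, all 6 other SMADs, 13 of the 16 regulators, and 9 of the 15 textbook targets were lower in all 5 lines, against 69.4% of all genes. SMAD4, the partner of SMAD3, fell by 2.38 to 3.08, and SMAD1 by 2.99 to 3.85. RNF111, a ubiquitin ligase that removes SMAD7 and other inhibitors, fell by 3.91 to 4.53, and TGIF2 by 3.71 to 4.18. The type I receptors ACVR1B and BMPR1A had changes of -2.53 to -2.20 and -2.89 to -2.07. THBS1, an activator of latent ligand, fell by 1.49 to 1.76, LTBP2 by 0.88 to 1.62, and ID1 by 1.34 to 2.06. The median of the other SMADs was between -2.84 and -2.19, further down than the median of all genes, and that of the latency genes between -1.02 and -0.42, less far down. Of the 15 textbook targets, JUNB and BHLHE40 were higher in all 5 lines, against 0.501% of all genes. BHLHE40 is a transcriptional repressor, named here after its values were seen. On the spike-in scale BHLHE40 rose by 0.97 to 2.69 and JUNB by 2.01 to 3.001 (largest adjusted p = 9.19e-10 by limma). On FPKM as deposited, where the rise is larger, JUNB went from 26.3 ± 1.85 to 502 ± 23.8 FPKM in SH-EP (SD, n = 3).

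The genes whose levels followed each member most closely over the 10 group means of log2(FPKM + 0.1) were found as a description, since these means share lines and treatments. TGFBR2 was most like WNT5A (Pearson's r = 0.992) and UACA (r = 0.992), and TGFBI most like GSN (r = 0.992) and DNAJC4 (r = 0.991). TGFB1 was most like P4HB (r = 0.997) and IQCK (r = 0.993), and SMAD7 most like VWA8 (r = 0.992) and MT2A (r = 0.988). SMAD3 was most like NOL3 (r = 0.981), TGFB3 most like L3MBTL2 (r = 0.972) and THRAP3 (r = 0.97), and TGFBR1 most like CPT1B (r = 0.964) and MAGEE1 (r = 0.959). TGFB2 was most like MIR1227 (r = 0.98) and PIGH (r = 0.917), and TGFBR3 most like LRFN3 (r = 0.932) and EXTL3 (r = 0.928).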

How the data were processed

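Poly(A) RNA from 30 libraries (10 groups of 3: SH-EP and 4 MYCN lines, each with DMSO or CYC065) was sequenced by the authors with ERCC spike-ins added by cell number, aligned to hg19 with HISAT, and quantified with Cufflinks. The deposited values are FPKM, fragments scaled to transcript length and to mapped fragments, for 26228 genes and 92 ERCC spike-ins. The annotation version and total reads per library are not given in the sources used here, so only relative depth was read from the steps between low values. Columns of per-sample values that matched no sample numbered 0.

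The 11575 genes whose mean over libraries reached 1 FPKM were kept, and log2(FPKM + 0.1) was fitted with limma 3.58.1 (R 4.3.3) with a term for each of the 10 groups, which shared 1 estimate of the spread, and Benjamini-Hochberg adjustment over all genes tested. A fold change on this scale understates the change of low genes. MYCN lines were compared in DMSO on FPKM as deposited. CYC065 and its interactions with line were tested on FPKM scaled to the median of the 55 spike-ins whose mean reached 1 FPKM. Calls were made at an adjusted p under 0.05. Ratios within libraries were compared by exact permutation over libraries. Libraries of a group correlated at 0.924 to 0.959 over the genes tested. The fits were also run on simulated data with almost no spike-in differences between libraries of a group. That run could not test the calls on spike-in scaled FPKM against such differences.

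Alternatives were the other scaling, median centring, pseudocounts of 0.01 and 1, no filter or 5 FPKM, a fold of at least 1.5, only the groups compared, spike-ins of at least 50 FPKM, and leaving out each library. The 9 members, the other pathway lists, and the tests were chosen with earlier results of these data known. Named were all members, of each other list up to 3 genes called alike in all 4 MYCN lines and up to 2 called in all 5 lines with CYC065, by the largest smallest change, and for each member the 2 most correlated genes. Some genes that this rule or a list holds are not reported here by name, though list counts and medians include them. Sequences are from RefSeq (GRCh38.p14), and all 9 members matched by symbol. Positions are from the GENCODE annotation on GRCh37, the files' build.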

Additional observations from a re-analysis of the deposited data

Results flagged for a closer look

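In 5 cases a gene responded to CYC065 differently in a MYCN line and in the parental cells, by the interaction test on spike-in scaled FPKM. In WT the differences were -0.92 for TGFB1, -0.92 for TGFBI, -0.91 for TGFBR2, and -1.38 for SMAD3 on the log2 scale, and in S62A the difference was -1.30 for SMAD3. In each case the transcript fell further with CYC065 in the MYCN line than in SH-EP. The median of all genes was -0.52 in WT and -0.29 in S62A on the same scale. These tests share the SH-EP libraries. On FPKM as deposited the difference for SMAD3 was -0.97 in WT and -1.08 in S62A. With spike-ins of at least 50 FPKM only, the 4 differences in WT no longer passed the threshold, and that of SMAD3 in S62A did. The WT differences of TGFB1, TGFBI, and TGFBR2 were each lost in 8 of the 30 fits that left out a single library, and those of SMAD3 in 0.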

How the results depend on the processing

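No paired analysis was possible because the columns are numbered 0 to 2 and the labels 1 to 3, so the numbers tie no library to a replicate label, and no fit with a replicate block was made. Depth is known only in relative terms, and CYC065 libraries were the shallower.

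With spike-in scaling, changes between lines turned negative for TGFB3 (-0.47) and TGFBR1 (-1.01) in WT, TGFB2 (-0.93) and TGFBR1 (-0.91) in T58A, TGFB2 (-1.84), TGFB3 (-1.06), TGFBR1 (-1.28), and SMAD7 (-1.84) in S62A, TGFBR3 (-0.81) in T58A S62A, and in the mean of the 4 lines TGFB2 (-0.74) and TGFBR1 (-1.03). Against WT, TGFBI (-0.40), TGFBR1 (-0.26), and SMAD7 (-0.45) in S62A and TGFB1 (0.0033), TGFBR2 (0.011), and SMAD7 (0.17) in T58A S62A reversed. Median centring reversed TGFB2 in T58A (-0.012) and TGFBR3 in T58A S62A (-0.018).

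For CYC065 on FPKM as deposited, TGFB1 was at 1.11, 0.63, 0.77, 0.95, and 0.93 (order SH-EP, WT, T58A, S62A, double mutant; mean 0.88) and TGFBI at 1.03, 0.55, 0.73, 0.66, and 0.72 (mean 0.74). TGFBR2 (0.21), TGFBR3 (0.47), and SMAD3 (0.41) in SH-EP, SMAD7 in WT (1.54), and TGFB2 in T58A (0.11) also reversed. With median centring TGFB1 was at 1.25, 0.81, 0.96, 1.12, and 1.09 (mean 1.05) and TGFBI at 1.17, 0.73, 0.92, 0.82, and 0.88 (mean 0.90), and TGFBR2 (0.35), TGFBR3 (0.61), and SMAD3 (0.55) in SH-EP, TGFB2 (0.16), TGFBR3 (0.058), and SMAD7 (1.72) in WT, TGFB2 in T58A (0.29) and T58A S62A (0.072), and the means of TGFB2 (0.034) and TGFBR3 (0.024) reversed. With spike-ins of at least 50 FPKM, SMAD7 in S62A was at -0.0078. These scalings set the median gene to different values by construction.

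Counts of members past the threshold moved as follows. A fold of at least 1.5 left 3 in WT and 3 in the mean against SH-EP, and against WT 0 in S62A, 1 in T58A S62A, and 1 in T58A. A filter at 5 FPKM kept 5 members, so that CYC065 counts were 3, 4, 4, 4, and 3 in the 5 lines and 5 in the mean, and the T58A count against WT was 1. Without a filter the WT interaction count was 2, and with spike-ins of at least 50 FPKM it was 0. Spike-in scaling gave 8 in WT against SH-EP, and 6 in S62A, 3 in T58A S62A, and 1 in T58A against WT. For those against WT the share of all genes was not computed. The median gene there moved by -0.71 in S62A, 0.39 in T58A S62A, and 0.28 in T58A on the log2 scale. On FPKM as deposited and with median centring the interaction counts were 5 in S62A, 5 in T58A S62A, and 4 in T58A. With only the groups compared, the S62A interaction count was 3, and 1 remained in S62A and 1 in T58A S62A against WT. Beyond what each setting removes or rescales by construction, the cause was not tested.

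Leaving out a library in turn, interaction counts ran from 1 to 7 in WT and 0 to 1 in T58A, and counts against WT from 1 to 3 in S62A and 3 to 6 in T58A S62A. Directions reversed, none past the threshold, for SMAD7 in WT (-0.28 to 0.0197) and TGFB1 in T58A S62A (-0.33 to 0.012) with CYC065, and between lines for TGFB2 in S62A (-0.032 to 0.15) and T58A (-0.032 to 0.05), TGFBR1 in T58A (-0.055 to 0.16) and T58A S62A (-0.22 to 0.029), and TGFBR3 in T58A (-0.16 to 0.028) and T58A S62A (-0.039 to 0.067). Values of further reversals inside these ranges were -0.025 for TGFB2, -0.014 and -0.00898 for TGFBR1, and 0.018 for TGFBR3 in T58A, and -0.019 and -0.022 for TGFBR3 in T58A S62A. Pseudocounts of 0.01 and 1 reversed no result, and 1 call against WT was lost at 0.01.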
